A study of Homo sapiens with 9 samples.

Results

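Either form of the kinase PLK2, intact PLK2 or PLK2(D223N), was set against the empty vector in HEK293T cells, to describe the genes that both constructs moved alike. HEK293T is an established line from human embryonic kidney that also makes the SV40 T antigen. The genotype was labelled WT throughout. The 3 Vector libraries came from cells overexpressing the FLAG vector, 3 libraries from cells overexpressing PLK2-FLAG and 3 from cells overexpressing PLK2(D223N)-FLAG. All 9 libraries of the series were used, 6 on the construct side and 3 on the Vector side. The construct side was the mean of both group means, so each construct weighed the same. The design text calls the 3 libraries of a group biological replicates. The labels state no plasmid amount, promoter or time of harvest. No library had an unrelated insert, so a response to PLK2 protein and a response to any overexpressed insert cannot be told apart.

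PLK2 is a polo-like kinase, a serine and threonine kinase with a catalytic domain and a polo-box domain that docks onto phosphorylated partners. It is known from centriole duplication, from synapses, where it is induced by activity, and as a kinase of alpha-synuclein. In PLK2(D223N) an aspartate of the kinase domain is replaced by asparagine, a substitution used to make a kinase-inactive form. Kinase activity was not measured here.

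PLK2 RNA followed the labels, but the constructs did not reach the same level. PLK2 was at 3.33, 4.09 and 2.83 CPM (counts scaled to the library total, with TMM factors) in Vector replicates 1 to 3, at 13978, 10680 and 12416 CPM with PLK2(D223N) and at 23503, 26239 and 21489 CPM with PLK2. PLK2 RNA was thus higher in every PLK2 library than in every PLK2(D223N) library, with a log2 difference of 0.94 (SE 0.089, edgeR adjusted p = 4.99e-05). Reads of the construct and of the cell's own gene cannot be told apart. A gene with a larger change under intact PLK2 therefore differs in both construct level and kinase form between the groups.

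Library totals ran from 14288165 to 16510186 estimated counts. Of 17083 listed genes, 12924 passed the filter on low counts and were tested. Among markers of the line, 12 of 14 reached a mean of 1 CPM, among them KRT8, KRT18, VIM and HOXA9, and their summed level was 1299 to 1378 CPM in Vector, 1283 to 1317 CPM in PLK2(D223N) and 1241 to 1293 CPM in PLK2 libraries. Of the 10 microglia and macrophage markers in the table, 2 reached 1 CPM, among them ITGAM, as did CD8A among lymphocyte markers. The Vector libraries stood apart from each other. The chi-square per gene was 17.7 between Vector replicates 1 and 2, 10.8 between 1 and 3 and 2.68 between 2 and 3, against 1.63 to 2.81 for the pairs within either construct group. Vector replicate 1 departed with GC content: its median deviation from the gene mean was -0.24 (log2) over the 2569 genes lowest in GC content and 0.15 over the 2568 highest. Both constructs were set against the same 3 Vector libraries, so a departure of 1 Vector library shifts both fold changes the same way, and results are given below with and without these libraries.

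**Figure D1:**
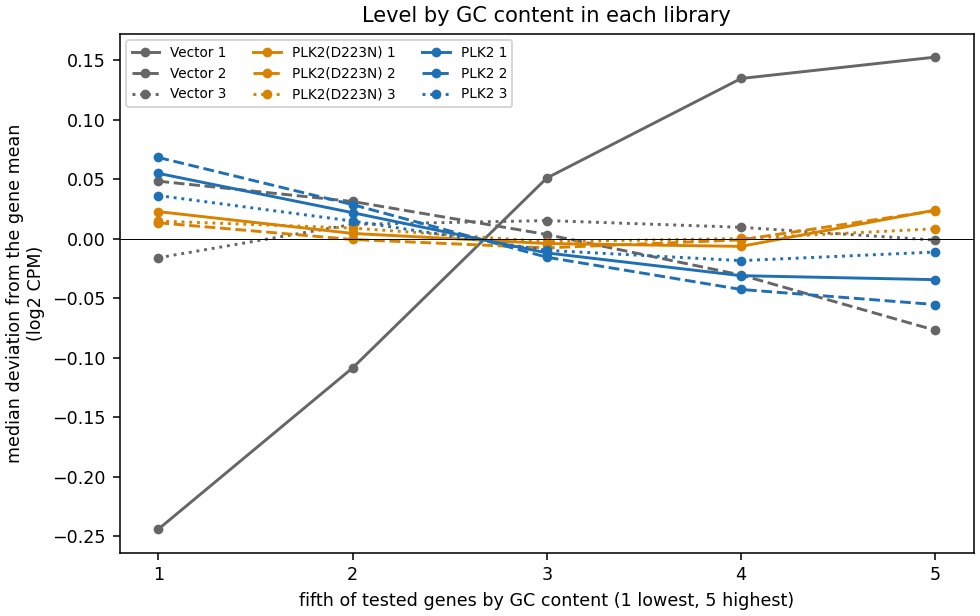
Median deviation of each library from the gene mean (vertical axis, log2 CPM) in 5 equal groups of the tested genes by GC content (horizontal axis, lowest to highest); each line is a library, with 3 line styles for replicates 1 to 3 and a colour for each group. Vector replicate 1 runs from -0.24 to 0.15, while the remaining libraries stay between -0.077 and 0.068.

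In the pooled comparison 6 of 12924 genes were called at an adjusted p below 0.05 (0.0464% of the tested genes), all of them higher with the constructs: PLK2, ANKRD1, EGR1, TNFAIP3, CREBRF and CREB5. By edgeR's quasi-likelihood test 0 genes were called lower (0%), while at an unadjusted p below 0.05 there were 821 lower (6.35%) and 1218 higher (9.42%). DESeq2, fitted to the same 12924 genes, called 43 genes higher and 2 lower. EGR1 and CREB5 were moved alike by both constructs, which is 0.0155% of the tested genes. PLK2, ANKRD1, TNFAIP3 and CREBRF rose further with intact PLK2. A gene counted as moved alike when the 95% interval of the difference between constructs lay within its pooled change on either side of 0, so that the smaller change was of the same sign and at least one part in 3 of the larger. A gene counted as unlike when that difference was itself called. For comparison, 66 genes (0.511%) were called for PLK2 against Vector, 3 (0.0232%) for PLK2(D223N) against Vector and 21 (0.162%) for PLK2 against PLK2(D223N). The first 2 of these share the Vector libraries. Each contrast took its spread from all 9 libraries, so PLK2 against PLK2(D223N) also depends on the Vector spread. Without Vector replicate 1 that contrast called 317 genes.

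EGR1 rose to about the same level with either construct. EGR1 (NCBI gene 1958) encodes a zinc-finger transcription factor of the immediate-early class, which is transcribed within minutes of growth factor or stress signals. It lies on chromosome 5 from 138465490 to 138469315 on the plus strand (GRCh38, GENCODE release 29). The 250 bases before its RefSeq start (GRCh38.p14, chr5:138465229-138465478, plus strand) are shown because its induction by serum runs through CArG boxes, the sites that bind serum response factor. Capitals mark the 2 CArG boxes found there, which begin 105 and 83 bases before the start.
EGR1: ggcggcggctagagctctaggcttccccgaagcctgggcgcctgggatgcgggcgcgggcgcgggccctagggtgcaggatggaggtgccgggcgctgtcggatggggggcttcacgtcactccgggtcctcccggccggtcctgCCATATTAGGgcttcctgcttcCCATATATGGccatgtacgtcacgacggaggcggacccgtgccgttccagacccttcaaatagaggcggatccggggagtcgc
A CArG box on either strand was present in 1.14% of the 27305 promoters of this length in the RefSeq table, and in 0.971% of the 10613 that belong to tested genes. The core TGACG of the cyclic AMP response element, also searched on both strands, occurs 2 times in the EGR1 window. It occurs in 21.1% of all promoters and in 28.7% of those of tested genes. The 2 motifs do not overlap in the EGR1 window. These matches describe the sequence and do not show that a factor was bound.

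EGR1 was at 2.67, 2.71 and 2.70 CPM in the 3 Vector libraries, at 6.64, 5.31 and 6.33 CPM with PLK2(D223N) and at 5.64, 5.19 and 5.89 CPM with PLK2. Every construct library was above every Vector library, and the construct groups overlapped each other. The means were 2.69 ± 0.0176 CPM in Vector, 6.09 ± 0.699 CPM with PLK2(D223N) and 5.57 ± 0.355 CPM with PLK2 (SD, n = 3 each). The pooled log2 fold change was 1.11 (SE 0.128, edgeR adjusted p = 7.82e-04), a 2.16-fold rise with a 95% interval of 0.84 to 1.39 on the log2 scale. It was 1.05 (SE 0.142) for PLK2 and 1.18 (SE 0.140) for PLK2(D223N), and each of these passed the test across all genes by itself (adjusted p = 2.37e-03 and 2.28e-03). The difference of PLK2 from PLK2(D223N) was -0.13 (SE 0.120), with a 95% interval of -0.38 to 0.13. The interval leaves room for a difference of up to 0.38 in favour of PLK2(D223N), although PLK2 RNA was lower in that group. EGR1 rests on few reads, 128 estimated counts over the Vector libraries and 560 over the construct libraries. It was called in 19 of 19 other settings of the processing, with log2 fold changes of 0.81 to 1.17, and without each Vector library in turn.

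CREB5 rose less and as evenly. CREB5 (NCBI gene 9586, chromosome 7, 28299321 to 28825894, plus strand) encodes a leucine-zipper transcription factor of the CREB and ATF family that binds cyclic AMP response elements. It was at 32.6, 40.0 and 37.7 CPM in Vector, at 46.9, 51.1 and 46.1 CPM with PLK2(D223N) and at 47.6, 48.3 and 51.3 CPM with PLK2. The lowest construct library was above the highest Vector library, and the constructs overlapped each other. The pooled log2 fold change was 0.40 (SE 0.0655, edgeR adjusted p = 0.0393), a 1.32-fold rise, with 0.42 (SE 0.0750) for PLK2 and 0.39 (SE 0.0750) for PLK2(D223N). The difference between constructs was 0.03 (SE 0.0730, 95% interval -0.13 to 0.19). CREB5 was near the threshold and passed in 10 of those 19 settings. It did not pass with any construct library left out (largest edgeR adjusted p = 0.170) or in either limma fit on TPM. Without Vector replicate 1 its log2 fold change was 0.32, without Vector replicate 2 it was 0.47, and without Vector replicate 3 it was 0.42 with an adjusted p of 0.113. Its RefSeq window (chr7:28412268-28412517, plus strand) lies before a start inside the gene's GENCODE span. It is shown for contrast with EGR1, all in lower case, because it held neither a CArG box nor the core TGACG.
CREB5: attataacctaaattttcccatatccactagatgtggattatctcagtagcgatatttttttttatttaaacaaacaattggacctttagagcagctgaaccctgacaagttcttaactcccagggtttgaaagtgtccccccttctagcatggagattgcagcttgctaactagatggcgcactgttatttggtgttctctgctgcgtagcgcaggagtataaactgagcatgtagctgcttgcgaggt
The full element TGACGTCA was not found in either window, and nor were the EGR site GCGGGGGCG and the AP-1 site TGANTCA. These occur in 1.73%, 4.48% and 6.84% of all promoters, and in 2.74%, 7.68% and 4.08% of those of tested genes.

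**Figure D2:**
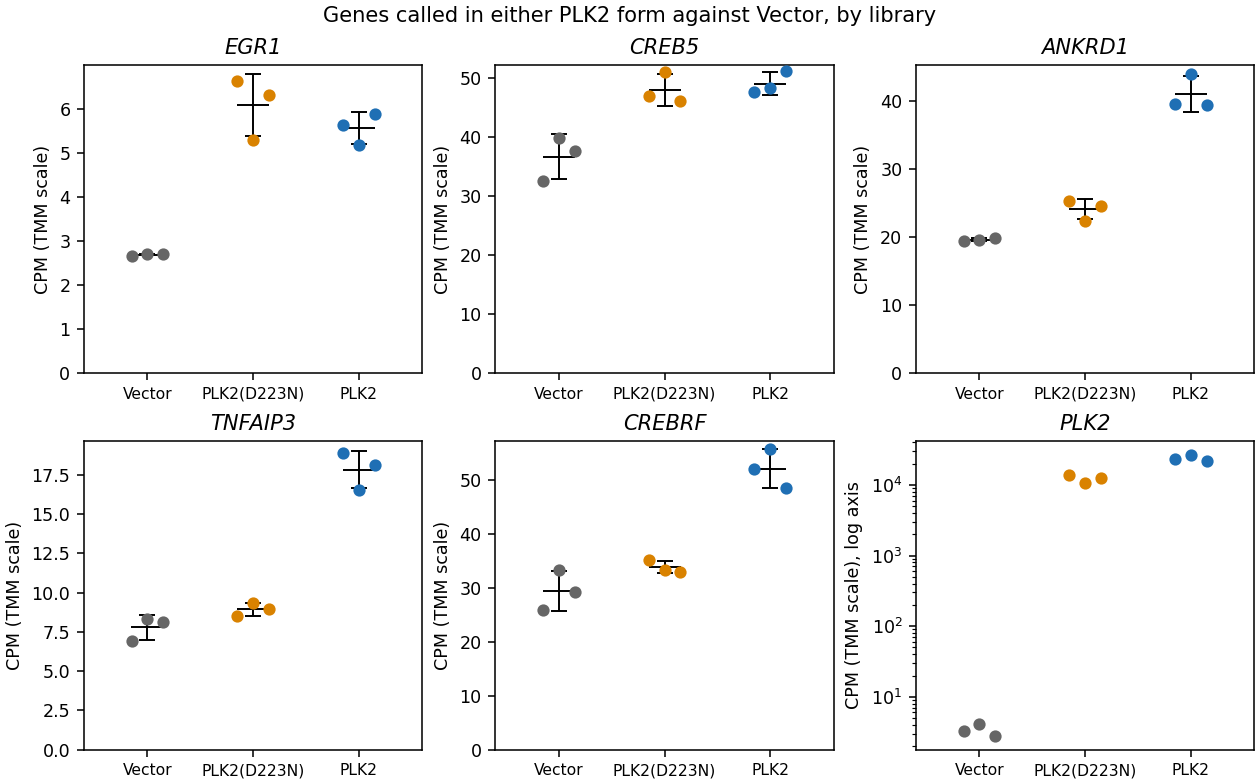
Levels of the 6 genes called in the pooled comparison (vertical axes, CPM on the TMM scale, a log axis for PLK2), with a point for each library by group and, except for PLK2, the mean and SD over 3 libraries. EGR1 and CREB5 are as high with PLK2(D223N) as with PLK2, while ANKRD1, TNFAIP3 and CREBRF are higher with PLK2.

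The other 3 called genes besides PLK2 rose in the pooled mean mainly through intact PLK2. ANKRD1, a cardiac ankyrin repeat protein and a target of the Hippo pathway factors YAP and TEAD, was at 19.4, 19.6 and 19.9 CPM in Vector, at 25.3, 22.4 and 24.6 CPM with PLK2(D223N) and at 39.4, 44.0 and 39.4 CPM with PLK2. The 3 groups did not overlap. Its pooled log2 fold change was 0.68 (SE 0.0648, edgeR adjusted p = 1.68e-04), with 1.06 for PLK2 and 0.30 for PLK2(D223N), and the latter did not pass (adjusted p = 0.509). The difference of 0.76 (SE 0.0694) passed the test (adjusted p = 3.51e-05). TNFAIP3 encodes A20, a ubiquitin-editing enzyme that restrains NF-kB signalling and is itself an NF-kB target. It was at 6.89, 8.32 and 8.11 CPM in Vector, at 8.51, 9.32 and 8.97 CPM with PLK2(D223N) and at 18.9, 16.5 and 18.1 CPM with PLK2. PLK2(D223N) stood just above Vector, and PLK2 far above both. Its pooled log2 fold change was 0.70 (SE 0.0892, edgeR adjusted p = 2.81e-03), and the constructs differed by 1.00 (SE 0.0931, adjusted p = 3.72e-05). CREBRF, a regulator that promotes the loss of the stress factor CREB3, was at 25.9, 33.4 and 29.2 CPM in Vector, at 35.1, 33.4 and 33.0 CPM with PLK2(D223N) and at 52.1, 55.7 and 48.6 CPM with PLK2. The Vector and PLK2(D223N) libraries overlapped. The pooled log2 fold change was 0.51 (SE 0.0732, edgeR adjusted p = 0.0110) and the difference between constructs was 0.62 (SE 0.0807, adjusted p = 1.88e-03).

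**Figure D3:**
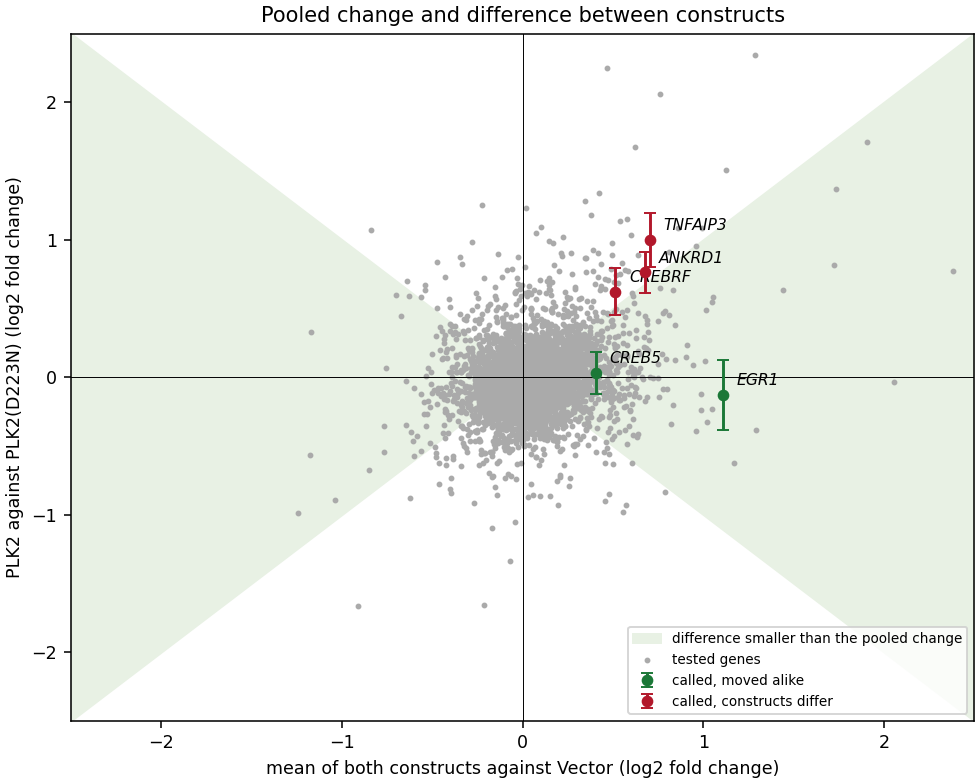
Pooled log2 fold change of both constructs against Vector (horizontal axis) and log2 fold change of PLK2 against PLK2(D223N) (vertical axis) for the tested genes except PLK2; bars are 95% intervals of the difference, the shaded wedge holds genes whose difference is smaller than their pooled change, and 5 genes beyond 2.5 on either axis are not drawn. EGR1 and CREB5 lie in the wedge near a difference of 0, and ANKRD1, TNFAIP3 and CREBRF lie above it.

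When the spread within the construct side was allowed to count, by fitting all 6 construct libraries as a single group, 3 genes passed: PLK2, EGR1 (adjusted p = 8.83e-04) and CREB5 (adjusted p = 0.0251). ANKRD1, TNFAIP3 and CREBRF did not pass in that fit (adjusted p = 0.270, 0.318 and 0.286). There the difference between constructs counts as spread, so the fit largely restates the split into alike and unlike and is no separate evidence. Where each construct had to be called against Vector by itself, the genes moved alike were EGR1 and PLK2, and CREB5 dropped out because PLK2(D223N) against Vector had an adjusted p of 0.197.

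A further 25 genes, all higher, had a pooled adjusted p between 0.05 and 0.1 and were not called. The nearest inside the threshold was CREB5 (0.0393), and the nearest outside were PLA2G4C (0.0531), ATF3 (0.0534) and BICRA (0.0534). By the interval alone, 15 of the 25 were moved alike, 5 were unlike and 5 were unresolved, and 14 of the 15 had no overlap between the 6 construct and 3 Vector libraries, against 2.62% of all tested genes in that direction and 6.3% in either. These genes were picked for a small pooled p, so the separation is a description. They are named here after their values were seen.

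ATF3, a stress-induced repressor of the ATF family, was at 69.1, 57.3 and 58.9 CPM in Vector, at 91.0, 80.9 and 86.8 CPM with PLK2(D223N) and at 73.8, 74.8 and 71.3 CPM with PLK2. It was higher with PLK2(D223N) than with PLK2 in every library, the reverse of the order of PLK2 RNA. Its pooled log2 fold change was 0.36 (SE 0.0619), with 0.25 for PLK2 and 0.48 for PLK2(D223N), and PLK2(D223N) against Vector passed by itself (edgeR adjusted p = 0.0261). The difference of -0.23 (SE 0.0700) did not pass after adjustment (adjusted p = 0.446), and its interval of -0.38 to -0.09 left ATF3 unresolved. BICRA, a subunit of the non-canonical BAF chromatin remodelling complex, was at 16.6, 16.02 and 17.8 CPM in Vector, at 23.5, 22.1 and 21.3 CPM with PLK2(D223N) and at 20.8, 21.7 and 21.2 CPM with PLK2, a pooled log2 value of 0.37 (SE 0.0644). MS4A4E was at 12.96, 12.6 and 11.99 CPM in Vector, 16.5, 15.7 and 17.1 CPM with PLK2(D223N) and 16.8, 15.9 and 15.7 CPM with PLK2, a pooled log2 value of 0.38 (SE 0.0688). In both genes the constructs overlapped each other and cleared Vector. GOLGA8B, of a golgin family with near-identical copies whose reads can be split between them, was at 59.6, 72.5 and 72.3 CPM in Vector and 80.4 to 93.5 CPM with the constructs. CHRM3, the muscarinic M3 receptor that HEK293 cells carry, was at 10.3, 13.2 and 11.7 CPM in Vector and 14.3 to 16.3 CPM with the constructs. SOX30 had the largest pooled log2 value of the genes with alike intervals (2.06, SE 0.499), but lay below 1 CPM in all 9 libraries. PLA2G4C, a cytosolic phospholipase A2, was at 1.01, 0.763 and 1.17 CPM in Vector, 1.49, 0.864 and 0.860 CPM with PLK2(D223N) and 5.38, 5.83 and 5.20 CPM with PLK2. Its PLK2(D223N) libraries overlapped Vector. ZNF850, ZNF585A and ZNF525, zinc-finger genes of families with close copies, were among the 15 as well, at pooled log2 values of 0.34, 0.51 and 0.58.

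**Figure D4:**
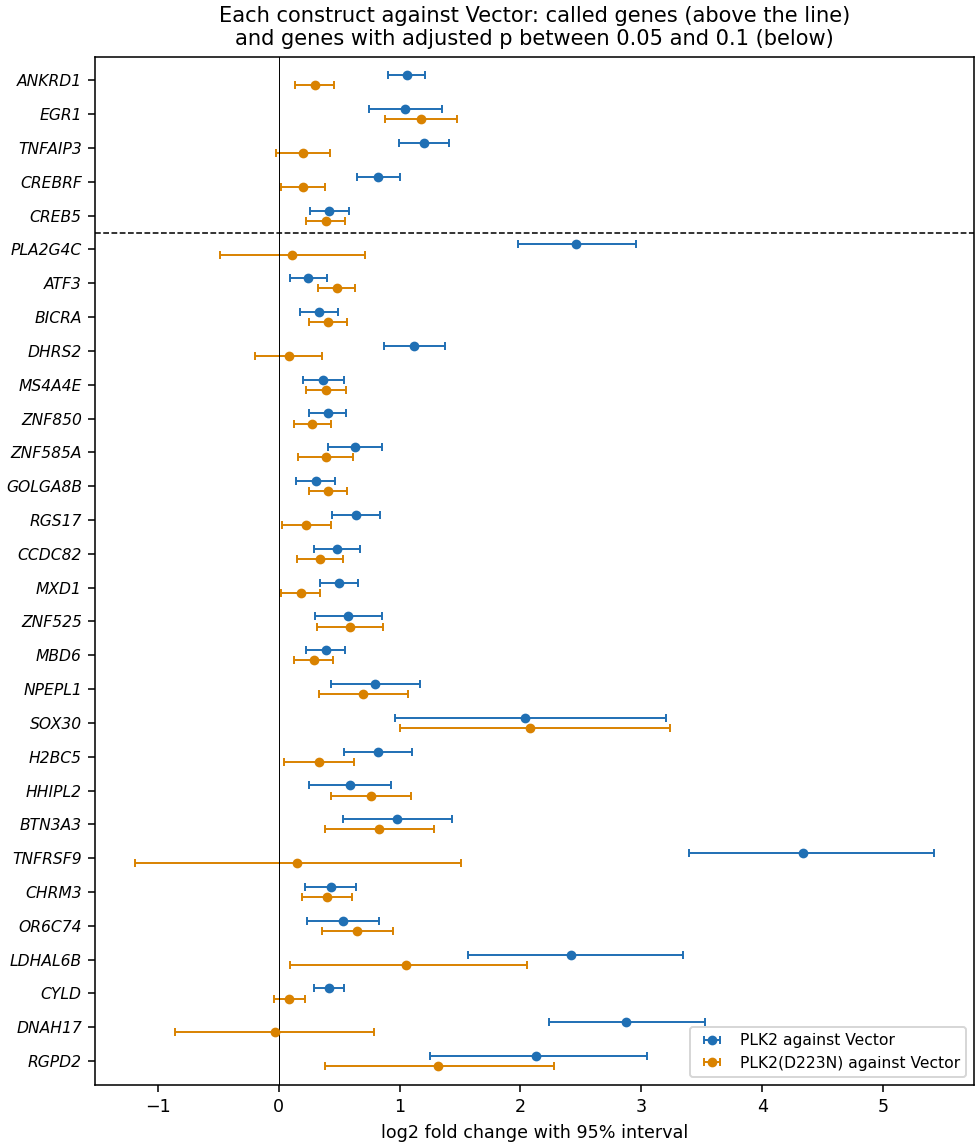
Log2 fold change against Vector (horizontal axis) with its 95% interval for PLK2 and for PLK2(D223N), for the called genes except PLK2 (above the dashed line) and the 25 genes with a pooled adjusted p between 0.05 and 0.1 (below it), in order of pooled p. Both symbols sit together for EGR1, CREB5, BICRA and MS4A4E, and apart for ANKRD1, TNFAIP3, PLA2G4C and TNFRSF9.

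Among transcription factors of the immediate-early class, EGR1 was the single gene called of 32 tested (0 lower), against 0.0464% of all genes, and the median pooled log2 value of the list was -0.01. The median over all tested genes was 0.00, with 50.4% above 0. At an unadjusted p below 0.05, 3 of the list were higher and 4 lower, against 9.42% and 6.35% of all tested genes. DESeq2 called 2 of the list, both higher, against 43 higher and 2 lower among all 12924 genes. Members named here for their place in the list had pooled log2 values of -0.13 for FOS (SE 0.160, adjusted p = 0.684), 0.06 for JUN (SE 0.0550, adjusted p = 0.596), 0.05 for IER2 (SE 0.0995, adjusted p = 0.815) and -0.17 for SRF itself (SE 0.0619, adjusted p = 0.246). The AP-1 subunit gene JUND came nearest after EGR1 and ATF3, at 8.02, 6.17 and 6.82 CPM in Vector and 8.30 to 10.2 CPM with the constructs, a log2 value of 0.38 (SE 0.104, adjusted p = 0.179). Of the 17 tested feedback genes of the ERK pathway, which limit the signal that induces EGR1, 0 were called by edgeR and 0 by DESeq2, with 3 higher and 1 lower at an unadjusted p below 0.05. NAB2, a corepressor that binds EGR1 and is induced by it, was at 14.4, 11.9 and 13.3 CPM in Vector, 11.98, 12.9 and 13.1 CPM with PLK2(D223N) and 9.50, 8.91 and 9.15 CPM with PLK2. The PLK2 libraries lay below the rest and the PLK2(D223N) libraries overlapped Vector, and the pooled log2 value of NAB2 was -0.29 (SE 0.0783, adjusted p = 0.171), which did not pass. NAB2 was called lower for PLK2 against Vector by itself, at -0.52 (SE 0.0939, edgeR adjusted p = 0.0176), and was at -0.06 for PLK2(D223N) (adjusted p = 0.811).

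The series title places PLK2 upstream of HSP90α and IKKβ. HSP90AA1, the gene of HSP90α, had a pooled log2 value of 0.07 (SE 0.0549, adjusted p = 0.539, 95% interval -0.05 to 0.18), and HSP90AB1 one of -0.09 (SE 0.0417, adjusted p = 0.327). IKBKB, the gene of IKKβ, had 0.03 (SE 0.0624, adjusted p = 0.816, interval -0.10 to 0.17). A pooled rise in RNA of HSP90AA1 or IKBKB above these upper bounds lay outside the intervals. These are RNA levels, and the amount or activity of the proteins was not measured here. HSP90AA1 was at 3221, 3900 and 3758 CPM in Vector, and its pooled value was -0.01 without Vector replicate 1. IKBKB was at -0.03 without Vector replicate 3. Of 25 tested HSP90 chaperones and co-chaperones, 0 were called by edgeR, with 3 higher and 2 lower at an unadjusted p below 0.05 and 1 higher by DESeq2. Their median was -0.04. Of all tested genes, 9.42% were higher and 6.35% lower at that unadjusted threshold. DESeq2 called 43 higher and 2 lower among all 12924 genes. Among 26 NF-kB targets TNFAIP3 was called higher and 0 lower, and 8 were higher and 1 lower at an unadjusted p below 0.05. The median of the NF-kB targets was 0.05 pooled, 0.13 for PLK2 and -0.03 for PLK2(D223N). Of the polo-like kinases, PLK1, PLK3 and PLK4 did not pass, at pooled log2 values of -0.01 (SE 0.0496), 0.21 (SE 0.169) and 0.19 (SE 0.0804). The PLK1 value is a mean of opposite signs, 0.12 for PLK2 and -0.13 for PLK2(D223N). The difference of 0.26 (SE 0.0573) did not pass after adjustment (edgeR adjusted p = 0.137). PLK5 had 2 estimated counts over the Vector and 5 over the construct libraries and was not tested.

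In the remaining lists edgeR called hardly any gene, and most medians were near 0. Across all tested genes, 9.42% were higher and 6.35% lower at an unadjusted p below 0.05. By DESeq2, 43 were called higher and 2 lower among all 12924 genes. Of 58 G2/M genes 0 were called by edgeR, 2 by DESeq2 (both higher), and 26 were higher and 0 lower at an unadjusted p below 0.05. Their median was 0.10 pooled, 0.18 for PLK2 and 0.02 for PLK2(D223N), and CENPE, a kinesin of the kinetochore, had the smallest p at 0.44 (SE 0.0951, adjusted p = 0.125). The 44 centriole and centrosome genes had medians of 0.11 pooled, 0.09 for PLK2 and 0.08 for PLK2(D223N), 36 of 44 above 0, with 0 called by either tool and 14 higher and 1 lower at an unadjusted p below 0.05. In Vector replicate 1 their median deviation was -0.23, against -0.03 to 0.06 in the remaining libraries. With GC content and length trends removed the pooled median of the centriole genes was 0.06. Clustered histone genes had the highest median of the lists with at least 10 tested members, 0.29 over 21 tested genes, with 18 above 0. The medians were 0.24 for PLK2 and 0.20 for PLK2(D223N). Their median deviation was 0.08, -0.22 and -0.26 in Vector replicates 1 to 3. It was -0.13 to 0.12 with PLK2(D223N) and 0.08 to 0.33 with PLK2, so Vector replicate 1 overlapped the construct libraries. Of the 21 histone genes 0 were called by edgeR and 1 by DESeq2 (higher), and 7 were higher and 0 lower at an unadjusted p below 0.05. Most histone messages lack a poly(A) tail, and the libraries were made from poly(A) RNA. HOX genes had medians of -0.07 pooled, -0.16 for PLK2 and -0.03 for PLK2(D223N), with 0 called by either tool and 7 of 36 lower at an unadjusted p below 0.05. Medians were -0.05 for 78 ribosomal protein genes and -0.05 for 32 proteasome genes, and in Vector replicate 1 these lists deviated by 0.16 and 0.12. SLC7A11, the cystine transporter that both the ATF4 and the NRF2 list hold, was at 58.9 CPM in Vector on average and 76.1 CPM with the constructs, without overlap. Its pooled log2 value was 0.37 (SE 0.0879, adjusted p = 0.139), with 0.36 for PLK2 and 0.38 for PLK2(D223N). With GC content and length trends removed SLC7A11 was at 0.22 (SE 0.0439) and was called (edgeR adjusted p = 0.0167). It was also called without Vector replicate 1 (0.23, adjusted p = 0.0105), without Vector replicate 2 (0.51, adjusted p = 5.41e-04) and by DESeq2 (0.37, adjusted p = 0.0254). SLC7A11 passed in 4 of 19 other settings, which are the 4 given here. It did not pass without Vector replicate 3 or with any construct library left out (largest edgeR adjusted p = 0.319).

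**Figure D5:**
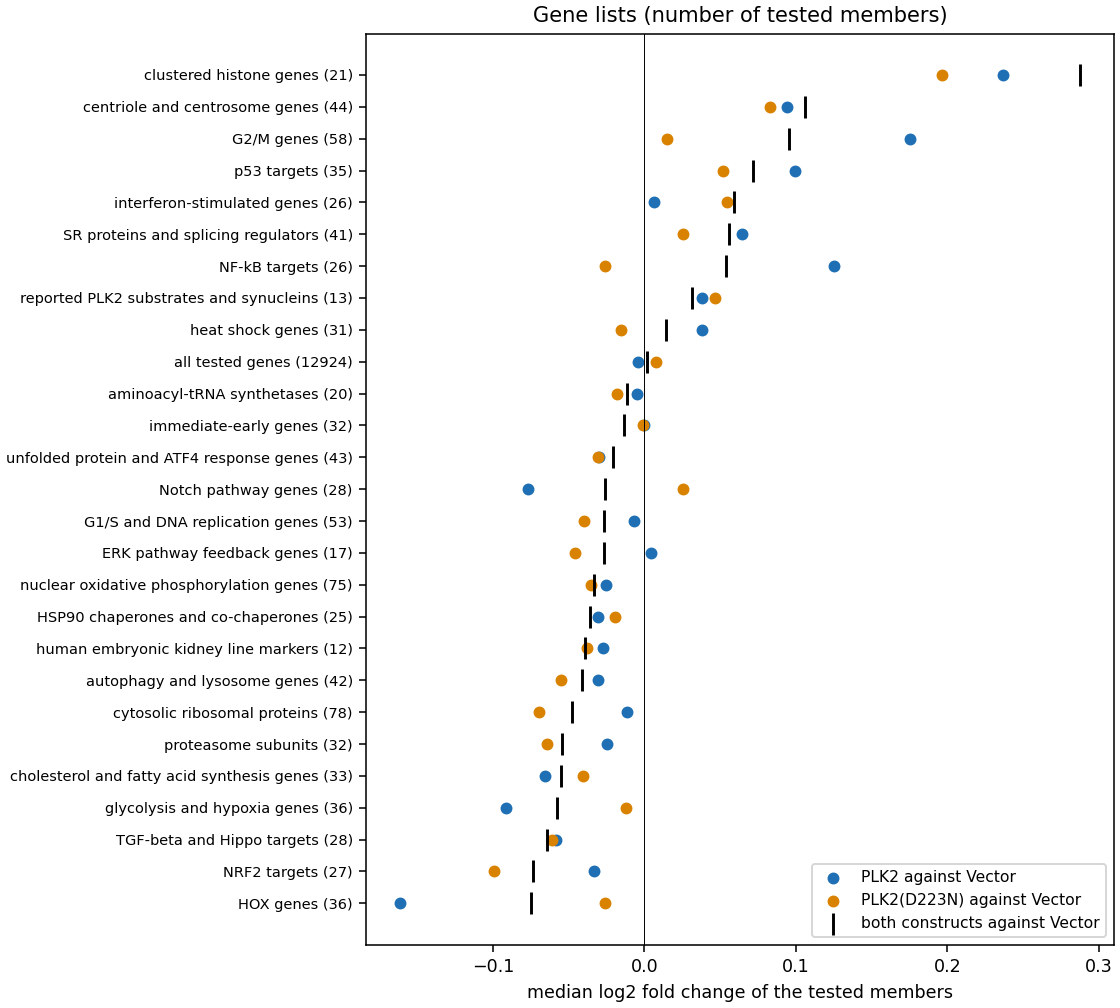
Median log2 fold change of the tested members of each gene list with at least 10 tested members (horizontal axis) for PLK2, PLK2(D223N) and both against Vector; the number of tested members follows each name. The G2/M, NF-kB and HOX medians differ between constructs, and the centriole medians are close together. All 3 sets of medians share the Vector libraries.

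How many genes were moved alike turned on the Vector libraries. Without Vector replicate 1, 93 genes were called in the pooled comparison (0.714%) and 44 were moved alike. Without Vector replicate 2, 1722 were called (13.2%) and 1373 moved alike, and without Vector replicate 3, 6 were called (0.0461%) and EGR1 alone was moved alike. ANKRD1, EGR1, PLK2 and TNFAIP3 were called in all 3 cases.

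With the trends with GC content and gene length removed from each library, the pooled comparison called 162 of 12841 genes (1.26%), 140 higher (1.09%) and 22 lower (0.171%), and 98 genes (0.763%) were moved alike, 33 were unlike and 31 unresolved. Leaving out Vector replicates 1, 2 and 3 in turn as well gave 143, 1262 and 80 called and 80, 975 and 60 moved alike. A set of 46 genes was called in all 4 of these fits, and 25 of them were moved alike in all 4, 20 higher and 5 lower. As this rule was chosen after seeing the data, the 25 genes are described without a further test. They include EGR1 and CREB5, and 6 of the 15 genes with alike intervals near the threshold: BICRA, CCDC82, CHRM3, GOLGA8B, HHIPL2 and MBD6.

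The 20 higher genes, after EGR1, had modest changes. With trends removed EGR1 had a pooled log2 fold change of 1.17 (SE 0.133, edgeR adjusted p = 3.24e-05) and CREB5 one of 0.43 (SE 0.0569, adjusted p = 3.50e-04). HHIPL2 followed EGR1 in size, at 0.73 (SE 0.138, adjusted p = 9.32e-03), from 3.33, 2.36 and 3.01 CPM in Vector to 3.80 to 5.31 CPM with the constructs. Trend-corrected values were 0.36 for BICRA, 0.39 for the methyl-CpG-binding domain protein MBD6, 0.27 for the bromodomain protein BAZ2B and 0.23 for the chromatin remodeller CHD2. MBD6 was at 19.1, 19.0 and 19.2 CPM in Vector and at 21.2 to 25.6 CPM with the constructs, with no overlap. Trend-corrected values were likewise 0.22 for SRSF11 and 0.18 for RBM5, both on the list of SR proteins and splicing regulators, 0.23 for the splicing factor SF3A2 and 0.30 for CPEB4, a regulator of poly(A) tails. SRSF11 was at 485, 682 and 647 CPM in Vector and at 707 to 767 CPM with the constructs, and Vector replicate 1 stood furthest below. GIGYF1, a partner in translational repression, was at 50.6, 50.7 and 54.0 CPM in Vector and at 57.6 to 64.9 CPM with the constructs, a trend-corrected value of 0.26. CHRM3 (0.44) and CACNB4 (0.32), a subunit of voltage-gated calcium channels, and MRE11 (0.17), a nuclease of DNA repair, and CHTF18 (0.33) were also in the set.

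The 5 lower genes had no overlap between constructs and Vector, against 3.68% of tested genes in that direction. They were picked by fits of these same libraries, so the separation is a description and no separate evidence. ICMT, the enzyme that methylates prenylated proteins such as RAS, was at 299, 262 and 269 CPM in Vector, at 240, 238 and 247 CPM with PLK2(D223N) and at 237, 241 and 228 CPM with PLK2. Its trend-corrected log2 value was -0.20 (SE 0.0398, edgeR adjusted p = 0.0189), with -0.20 for PLK2 and -0.19 for PLK2(D223N). RTN3, a reticulon of the endoplasmic reticulum, was at 292, 273 and 274 CPM in Vector and at 242 to 257 CPM with the constructs, a value of -0.20 (SE 0.0422). TM7SF3 was at 88.3, 84.1 and 82.6 CPM in Vector and at 73.5 to 76.7 CPM with the constructs (-0.17). ATP1B3, a beta subunit of the sodium pump, was at 222, 224 and 218 CPM in Vector and at 194 to 208 CPM with the constructs (-0.17). PTGES3, the HSP90 co-chaperone p23, was at 1092, 1082 and 1036 CPM in Vector and at 967 to 1016 CPM with the constructs (-0.16). In the fit without trend removal these 5 genes had adjusted p-values of 0.125 to 0.268 and were not called.

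With the trends removed, called members of the gene lists were alike in some lists and unlike in others. Over all genes 1.26% were called, and of these 162 genes 98 were alike, 33 unlike and 31 unresolved. Most lists held few called genes, so their counts describe single members. Of 58 G2/M genes, 9 were then called, all higher, and 0 of these were alike, 7 unlike and 2 unresolved. Among the 6 called NF-kB targets, 1 was alike, CSF1 at 0.34 (SE 0.0809, adjusted p = 0.0403), and 5 were unlike. Of 3 called immediate-early genes, EGR1 and JUND (0.41, SE 0.0912, adjusted p = 0.0290) were alike and ATF3 (0.40, SE 0.0465) was unlike, being higher with PLK2(D223N). The 3 called NRF2 targets held 2 alike, SLC7A11 and HMOX1, the gene of heme oxygenase, and 1 unlike. Both called splicing regulators, SRSF11 and RBM5, were alike. In the p53 list MDM2, the ubiquitin ligase of p53, was alike and 2 were unlike, 1 of them PLK2. In the unfolded protein and ATF4 list SLC7A11 was alike, 1 gene was unlike and 1 unresolved. Of the 2 called HSP90 co-chaperones PTGES3 was alike, and of the reported PLK2 substrates FBXW7, a substrate receptor of a ubiquitin ligase, was called and alike. Of 4 called histone genes 1 was alike, 1 unlike and 2 unresolved. The called members of the TGF-beta and Hippo, autophagy and lysosome, centriole, HOX and kidney line marker lists, 1 in each, were unlike or, for the centriole list, unresolved. Among the polo-like kinases PLK2 alone was called, and it was unlike.

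The precision for single genes varied with their spread between libraries. The distance from the estimate to either end of its 95% interval had a median over genes of 0.15 on the log2 scale for the pooled comparison and 0.17 for the difference between constructs.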

How the data were processed

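RNA from 9 HEK293T cultures was measured as polyadenylated transcripts, per the labels' protocols. The submitters' processing notes name Bowtie2, RSEM 1.3.1, DESeq2 1.4.5 and build GRCh38.p13, with no word on which tool did what, the annotation or the strand setting. The authors deposited 1 table of estimated counts for each gene, with decimals in some values (87.1% to 88.5% of values per library lay within 0.005 of a whole number). The TPM values in it were also made by the authors, per the file headers, and served only an alternative test. The other 18 columns of values per library were not used here. One Vector title has transposed letters; its column was matched by number. Genes of the mitochondrial genome were not analysed here.

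Groups came from the labels. Estimated counts were rounded, genes were filtered by filterByExpr on the group, and all 9 libraries entered a quasi-likelihood fit in edgeR 4.0.16 (TMM, robust, group as the only term). P-values are two-sided, from edgeR unless another tool is named, and adjusted by Benjamini-Hochberg over all 12924 tested genes; a gene was called below 0.05. Intervals are 95% with moderated degrees of freedom. Library totals of 14288165 to 16510186 estimated counts set the counting precision. P-values measure the spread between these 3 libraries a group.

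Named genes were the polo-like kinases, EGR1, ATF3, HSP90AA1, HSP90AB1 and IKBKB; called genes with no overlap and a mean of at least 1 CPM, at most 15 in each direction; alike genes, at most 15; unlike genes, at most 10; and up to 3 called members, or the member with the smallest p, of each of 32 lists, 6 of them marker lists. Other genes are said to be named after their values were seen or for their place in a list. Members, rules and lists were chosen with earlier results of these data known. Alternatives were DESeq2 1.42.0 (its Wald test, and its size factors in edgeR), a filter of 1 count only, a filter of 10 counts with a mean of 1 CPM, PLK2 left out before scaling, a replicate block, all construct libraries as 1 group, trends with GC content and length removed (loess, span 0.3, GENCODE release 29), limma 3.58.1 on log2(TPM + 1) and log2(TPM + 0.1), other likeness rules and each library left out. Trend removal together with each Vector library left out was added after seeing the data. Fits were tested on simulated data. R 4.3.3 and Python 3.11.15 were used. Promoter sequences are from RefSeq, which matched 12896 tested genes by identifier.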

Additional observations from a re-analysis of the deposited data

Results flagged for a closer look

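In 3 of the genes called in the pooled comparison, besides PLK2 itself, the test of the difference between the constructs passed, so that their pooled value is a mean of unequal changes. TNFAIP3, the gene of the NF-kB inhibitor A20, differed by 0.997 on the log2 scale between PLK2 and PLK2(D223N), with 1.20 for PLK2 and 0.20 for PLK2(D223N) against Vector. ANKRD1, the Hippo pathway target, differed by 0.763, with 1.06 and 0.30. CREBRF, the regulator of CREB3, differed by 0.623, with 0.83 and 0.20. All 3 differences had the PLK2 side higher, and every PLK2 library was above every PLK2(D223N) library. PLK2 RNA was also higher in the PLK2 libraries (log2 difference 0.94), and its part in these differences was not tested.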

How the results depend on the processing

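Counts are given in the order pooled comparison, PLK2 vs Vector, PLK2(D223N) vs Vector, PLK2 vs PLK2(D223N) and genes moved alike, against 6, 66, 3, 21 and 2 as reported. The DESeq2 Wald test gave 45, 143, 9, 37 and 21, no filter gave 20, 136, 5, 35 and 10, and GC content and length trends removed gave 162, 301, 7, 75 and 98. With the trends removed and a Vector library left out, counts were 143, 364, 25, 261 and 80 without replicate 1, 1262, 1093, 562, 90 and 975 without replicate 2, and 80, 195, 8, 63 and 60 without replicate 3. The fit with all construct libraries as 1 group called 3 in the pooled comparison. Either limma fit on TPM called 19 for PLK2 vs Vector and 11 for PLK2 vs PLK2(D223N).

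Leaving out 1 library at a time gave 4 to 1722 in the pooled comparison, 13 to 1656 for PLK2 vs Vector, 2 to 347 for PLK2(D223N) vs Vector, 9 to 317 for PLK2 vs PLK2(D223N) and 1 to 1373 moved alike. The high ends came without Vector replicate 2, save 317 without Vector replicate 1 (93 pooled, 44 alike); without Vector replicate 3 or any construct library 1 gene was moved alike. The correlation of deviations was -0.11 to 0.14 for samples with shared replicate numbers and -0.22 to 0.12 for others, so the ranges overlapped. With 3 libraries a group this cannot exclude a batch shared by number. With a replicate block the counts were 7, 76, 4, 20 and 2. The likeness rules (a margin of 0.5, a 99% interval, each construct called) gave 2 genes each.

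Named genes that were not called and whose pooled value changed sign were PLK1 (0.045 with trends removed, 0.023 with either TPM fit, -0.047 to 0.061 without 1 library at a time, and 0.073, 0.047 and 0.015 with trends removed and replicates 1, 2 and 3 left out), RPS29 (-0.044 with either TPM fit), HSP90AA1 (-0.012 without Vector replicate 1, -3.72e-04 with trends also removed), IKBKB (-0.027 without Vector replicate 3), ATP5F1E (-0.037 with trends removed without replicate 2) and ESAM (0.057 with trends removed without replicate 3). The cause was not tested. ANKRD1, TNFAIP3, CREBRF and CREB5 lost their call in 1, 2, 7 and 9 of 19 settings, and EGR1 in 0. Depth limits the precision of genes with few reads, such as EGR1 with 128 estimated counts over the Vector libraries.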

Other observations

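Genes with symbols of the ZNF type, a set picked after the data were seen, had pooled log2 values above 0 in 66.9% of 441 tested genes, with a median of 0.07, against 49.8% of the other genes. Their medians were 0.07 for PLK2 and 0.06 for PLK2(D223N), and 0 of them were called by edgeR. Their median deviation was -0.18 in Vector replicate 1 and -5.4e-04 to 0.04 in the remaining libraries, and their median GC content was 45.8% against 49.9% of the other genes. The part of Vector replicate 1 in this pattern was not tested for the ZNF set alone.

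Pooled medians also followed GC content, from 0.10 over the genes lowest in GC to -0.06 and -0.04 over the 2 highest groups. From the lowest to the highest group the medians went from 0.12 to -0.06 for PLK2 and from 0.09 to -0.01 for PLK2(D223N), against the same Vector libraries. The 25 genes moved alike with trends removed had a median GC content of 48.7% (20 higher genes) and 44.4% (5 lower genes), against 49.8% over all genes.

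DESeq2's Wald test found 21 genes moved alike, and 10 of these were among the 25 genes that recurred with trends removed: BAZ2B, BICRA, CACNB4, CCDC82, CHRM3, CREB5, EGR1, GOLGA8B, ICMT and MBD6. Without the filter on low counts 10 genes were moved alike, and all 10 were among the 21. These fits use the same libraries, with the same Vector side, so the overlaps are a description and no separate evidence. ITGAM, the marker of myeloid cells nearest to a change, was at 1.95 CPM in Vector on average, at 1.05 CPM with PLK2(D223N) and at 1.88 CPM with PLK2. Its log2 value was -0.89 for PLK2(D223N) (edgeR adjusted p = 0.574) and -0.06 for PLK2 (adjusted p = 0.918), with a pooled value of -0.48 (SE 0.225, adjusted p = 0.319).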
